A study of Mus musculus with 6 samples.

Results

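The nuclear receptors described here are 31 genes, namely members of the superfamily other than those best known for sensing xenobiotics and bile acids. Of these 31 genes, 29 were among the 19616 genes of the deposited table, while Rxrg and Pgr were not, and 27 passed the filter on low counts and were tested. The members were listed by name, and earlier results of these data were known when they were chosen. RNA was sequenced from jejunal intestinal epithelial cells (IEC) enriched with EDTA, from 3 wild-type control mice and 3 villin-Cre Hdac1-/-; Hdac2-/- mice, all aged 3 months, with 1 library per mouse. The control mice were C1, C3 and C3-3 and the Hdac1/2-deleted mice were H1, H5 and H9. The villin-Cre transgene drives recombination of the floxed alleles in the intestinal epithelium, so other cells carried along in the preparation kept both genes. The comparison asked which receptors differed in level when the 2 histone deacetylases were deleted from the epithelium.

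Nuclear receptors are transcription factors, many of which bind a small lipophilic ligand such as a steroid, thyroid hormone, retinoic acid, vitamin D, a fatty acid or an oxysterol. Many bind DNA as heterodimers with a retinoid X receptor. Without ligand several of them recruit corepressor complexes that contain histone deacetylases, and with ligand they recruit coactivators that include histone acetyltransferases. In the small intestine they are known for calcium uptake, lipid handling, cholesterol efflux, glucocorticoid responses and epithelial renewal.

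The targeted Hdac1 measured 39.1, 34.5 and 48.8 CPM (counts scaled to library size) in C1, C3 and C3-3, and 3.97, 2.53 and 4.81 CPM in H1, H5 and H9. Its log2 fold change, given throughout as Hdac1/2-deleted over control, was -3.43 ± 0.26 (SE, adjusted p = 2.9e-05). Hdac2 measured 32.8, 23.6 and 26.5 CPM against 26.6, 25.4 and 21.4 CPM, with a log2 fold change of -0.18 ± 0.17 (adjusted p = 0.44). Which exons were removed is not given in the sources used here, so a total over the whole gene could not check the deletion of Hdac2. The libraries held 36111035 to 65902344 counts, and 3 counts corresponded to 0.0405 to 0.079 CPM, a floor that covers counting error only. Summed epithelial markers reached 12342 to 14135 CPM in control mice and 9526 to 11698 CPM in Hdac1/2-deleted mice. The library of C3-3 stood apart from those of C1 and C3 in the 5 smooth muscle markers, which summed to 66.5 CPM in C1, 52.4 in C3 and 2.77 in C3-3, against 0.358 to 0.395 CPM in Hdac1/2-deleted mice. In these mixed samples, fewer cells of a type and less RNA per cell cannot be told apart.

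A gene was called increased or decreased at an adjusted p of at most 0.05 (edgeR quasi-likelihood test, Benjamini-Hochberg over all 15618 genes tested) and a change of at least 2-fold. Of the 27 receptors tested, 6 decreased, namely Vdr, Nr2c1, Nr3c1, Rarb, Rarg and Nr2f2. These 6 were 22.2% of the tested receptors, beside 12.7% of all genes tested. The only receptor that increased was Nr4a1, which was 3.70% of the receptors, beside 12.4% of all genes. With no limit on the fold, 13 receptors passed the adjusted p limit, 11 of them lower and 2 higher. That was 48.1% of the receptors, close to the 40.8% of all genes. The groups did not overlap for 16 receptors, or 59.3% beside 53.2% of all genes, and 13 of the 16 were lower in Hdac1/2-deleted mice. The median log2 fold change was -0.29 over the tested receptors and -0.0081 over all genes, and 66.7% of the receptors against 50.4% of all genes had a negative value.

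**Figure D1:**
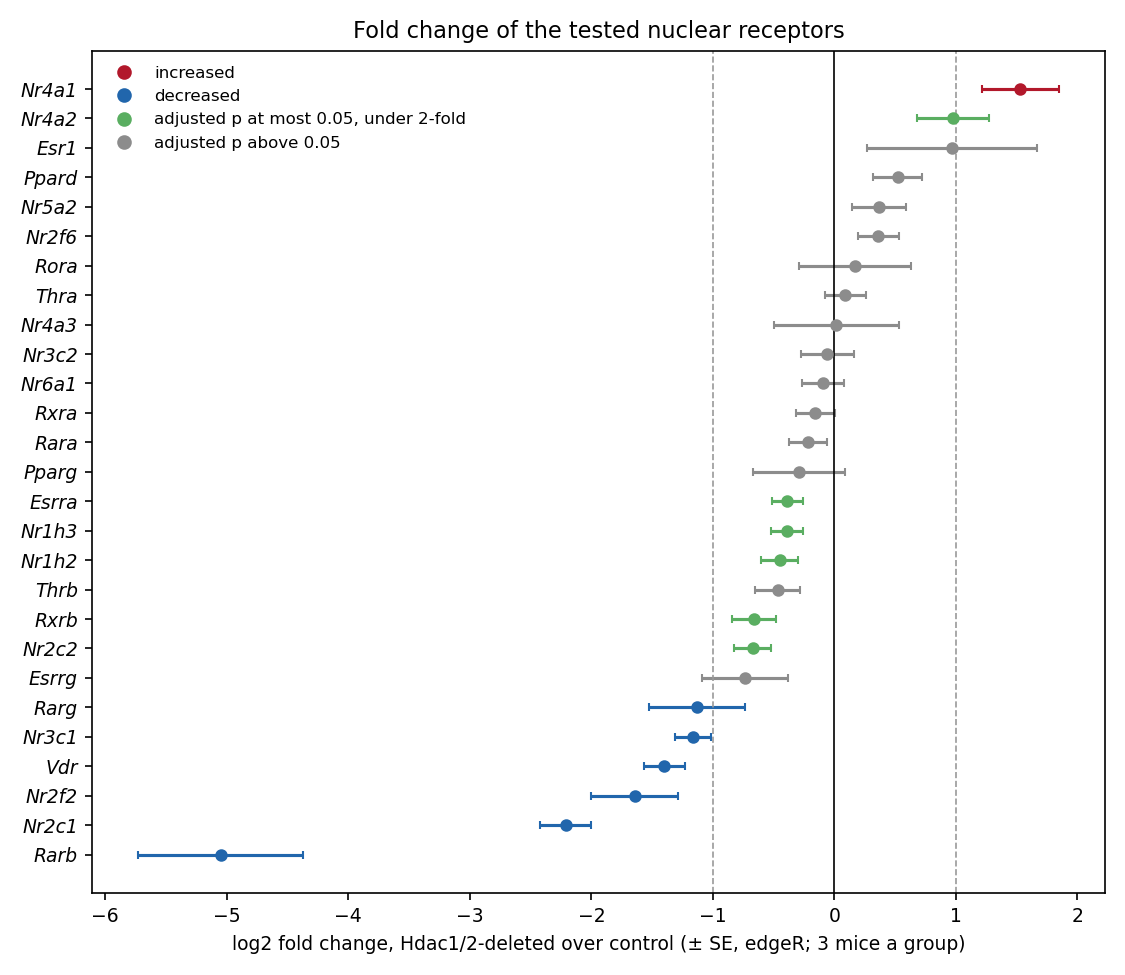
Log2 fold change, Hdac1/2-deleted over control, of the 27 tested receptors with its SE from edgeR, 3 mice a group; colour gives the call and dashed lines mark 2-fold. Rarb lay lowest at -5.05 and Nr4a1 highest at 1.53, and the 14 grey receptors did not pass the adjusted p limit.

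Per length of exon, the receptors spanned a wide range of levels. Vdr was highest in both groups, at 154 CPM per kb in control mice and 58.4 CPM per kb in Hdac1/2-deleted mice. Esrra and Rxra followed in both groups, at 62.8 and 50.5 CPM per kb in control mice and at 48.0 and 45.3 CPM per kb in Hdac1/2-deleted mice. Below them in control mice came Nr1h2, Nr2f6, Nr1h3, Thra and Ppard in that order, between 43.0 and 24.1 CPM per kb. In Hdac1/2-deleted mice the same 5 genes filled ranks 4 to 8, now led by Nr2f6 at 45.0 CPM per kb, with Nr1h3 last at 25.9. Nr3c1 moved from rank 9 to rank 11 of the 29 receptors and Nr2c1 from rank 16 to rank 19. Nr4a1 and Nr4a2 moved the other way, from ranks 23 and 21 to ranks 20 and 18. At the foot of the order, Nr4a3, Rarb, Rora, Esr1, Nr2f1 and Esrrb were under 0.1 CPM per kb in both groups.

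**Figure D2:**
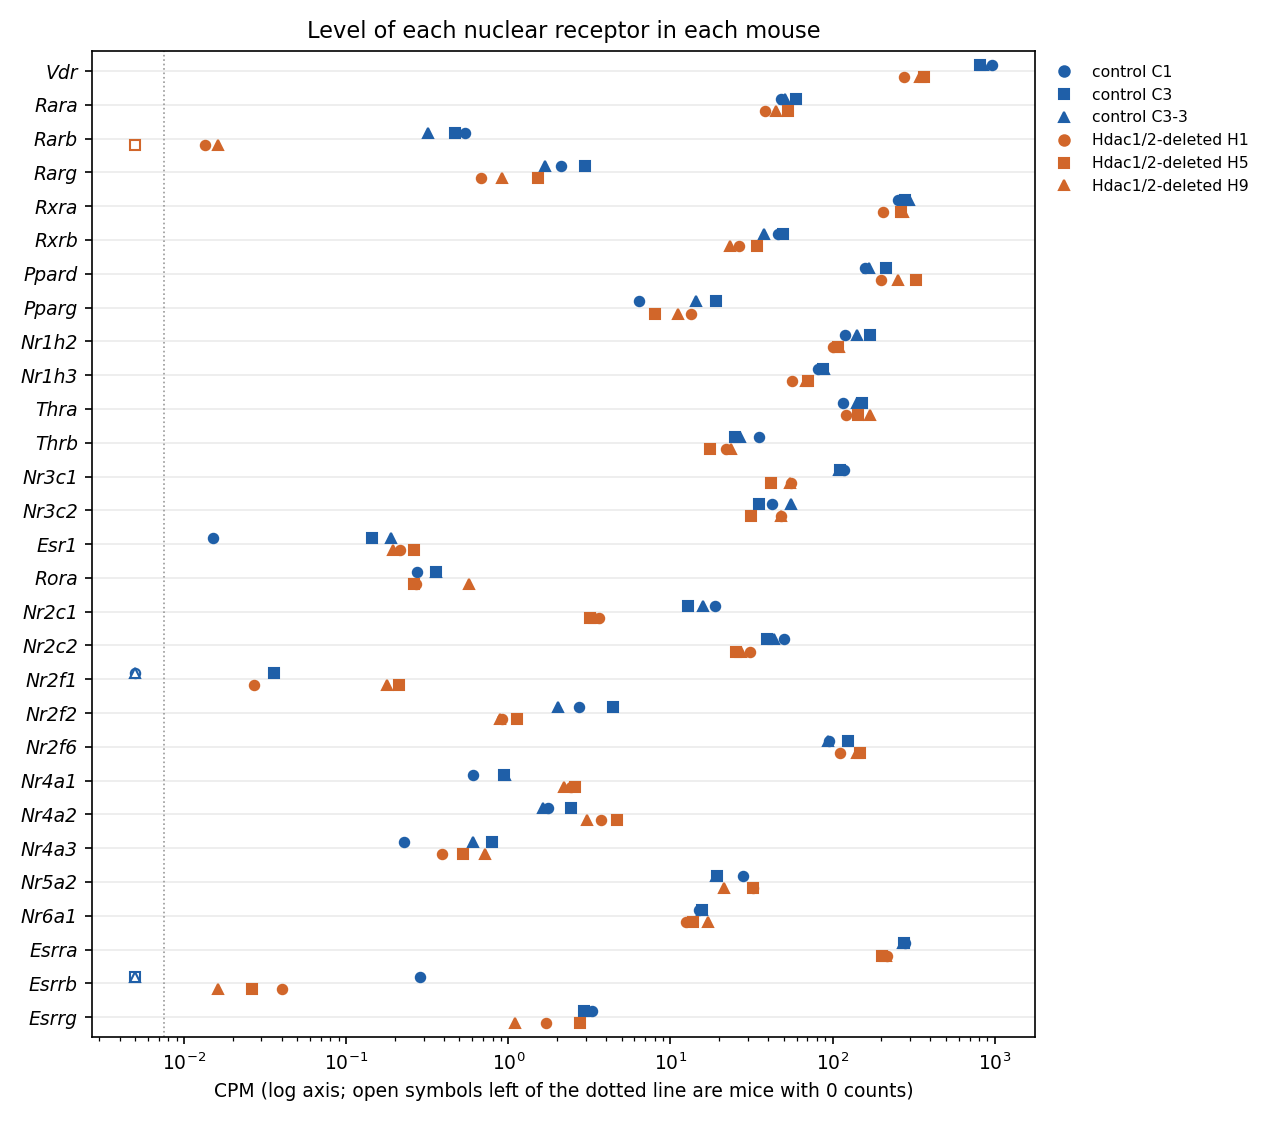
CPM of each of the 29 receptors in the table in each mouse, on a log axis; blue is control, orange Hdac1/2-deleted, the shape gives the mouse, and open symbols at the left edge are mice with 0 counts. Vdr sits at the right end in all 6 mice, and in Nr2c1 and Rarb the orange points lie far to the left of the blue ones.

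Among the receptors for vitamins, the vitamin D receptor Vdr changed most in absolute level. Vdr, which binds calcitriol and controls intestinal calcium absorption, lies on chromosome 15 from 97854425 to 97910630 (GRCm38, minus strand). It measured 958 CPM in C1, 807 in C3 and 846 in C3-3, and 275 CPM in H1, 367 in H5 and 348 in H9. The lowest control mouse was thus more than 2-fold above the highest Hdac1/2-deleted mouse. The group means were 870.2 ± 78.7 and 330.1 ± 48.6 CPM (SD, n = 3), and the log2 fold change was -1.40 ± 0.17 (SE, adjusted p = 0.00031), with a range of -1.48 to -1.28 when each mouse was left out in turn. Enterocyte markers moved in the same direction, since their sum was 70825 to 83291 CPM in control mice and 22250 to 30930 CPM in Hdac1/2-deleted mice, with 4 of 7 markers decreased and 1, Alpi, increased. Their part in the level of Vdr was not tested. The start region of Vdr is printed here because it belongs to the most abundant receptor. It is the RefSeq promoter window of GRCm38.p6, chr15:97908247-97908546, minus strand, read 5′ to 3′, and capitals mark the 3 copies of GGGCGG, the GC box recognised by Sp factors, which begin 63 to 36 bases before the start.
Vdr: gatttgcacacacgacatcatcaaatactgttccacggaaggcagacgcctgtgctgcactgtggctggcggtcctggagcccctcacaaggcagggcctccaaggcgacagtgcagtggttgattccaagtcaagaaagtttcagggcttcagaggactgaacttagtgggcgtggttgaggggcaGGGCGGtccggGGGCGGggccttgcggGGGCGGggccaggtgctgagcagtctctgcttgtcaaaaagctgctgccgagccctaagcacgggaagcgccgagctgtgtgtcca
This motif was searched on both strands and stood in 35.7% of 32851 promoter windows of the same length, and in those of 18 receptors, so its presence is a description only.

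Of 7 listed targets of the vitamin D receptor, 5 were in the table and tested, 2 increased and none decreased. Cldn2, a claudin that forms a cation and water pore, measured 53.9, 29.6 and 33.7 CPM in C1, C3 and C3-3 and 621, 613 and 663 CPM in H1, H5 and H9, a log2 fold change of 4.02. S100g, the intestinal calcium-binding protein calbindin, measured 9.92, 9.63 and 9.29 CPM against 28.3, 14.9 and 15.1 CPM, a log2 fold change of 1.02. In both genes every Hdac1/2-deleted mouse was above every control mouse, but S100g was under 2-fold without H1, at 0.65. Cyp24a1 and Trpv6 were not in the table.

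The retinoic acid receptors differed among themselves. Rara, the most abundant of the 3, measured 47.8, 59.3 and 51.2 CPM in control mice and 38.5, 52.9 and 45.1 CPM in Hdac1/2-deleted mice. Its groups overlapped and its log2 fold change of -0.22 ± 0.16 did not pass the test (adjusted p = 0.31). Rarb, itself a classical retinoic acid target, was counted at 36, 26 and 17 reads in C1, C3 and C3-3, or 0.543, 0.468 and 0.320 CPM. In H1, H5 and H9 it was counted at 1, 0 and 1 reads. Rarb was thus at or near 0 in every Hdac1/2-deleted mouse and low but present in every control mouse. The ratio of control to Hdac1/2-deleted, over 79 and 2 counts, was 39.2 with an exact 95% interval of 10.5 to 329 that covers counting error only. The fitted log2 fold change of Rarb was -5.05 ± 0.68 (SE, adjusted p = 0.00051) and depends on the prior count, reaching -3.40 with a prior count of 2. Rarg, the isotype found mainly in skin and in immature cells, measured 2.11, 2.95 and 1.67 CPM against 0.675, 1.53 and 0.910 CPM. The groups of Rarg did not overlap, but only by a small margin, since C3-3 at 1.67 CPM lay just above H5 at 1.53 CPM. The log2 fold change of Rarg was -1.13 ± 0.39 (adjusted p = 0.047), and the call was lost without any one of C1, C3, C3-3, H1 or H9, with an adjusted p of up to 0.15.

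The start region of Rarb is shown because of the retinoic acid response element for which this gene is known. Rarb lies on chromosome 14 from 16430839 to 16819156 (minus strand), and the RefSeq window chr14:16575427-16575726 of GRCm38.p6 lies inside that span. In the sequence, 5′ to 3′, capitals mark a pair of GTTCA motifs separated by 6 bases, which begins 52 bases before the start.
Rarb: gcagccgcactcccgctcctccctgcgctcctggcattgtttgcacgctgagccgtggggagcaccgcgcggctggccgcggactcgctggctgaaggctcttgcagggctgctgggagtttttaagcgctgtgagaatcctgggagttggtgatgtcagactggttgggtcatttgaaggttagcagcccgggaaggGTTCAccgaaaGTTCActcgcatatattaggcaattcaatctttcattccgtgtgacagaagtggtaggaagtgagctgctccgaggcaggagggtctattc
This pattern, a pair of GTTCA with any 6 bases between, was searched on both strands and stood in 25 of 32851 promoter windows (0.0761%), which belonged to 24 genes. Rarb was the only receptor of the list with a match, and Cyp26a1, a retinoic acid hydroxylase, was another gene with it. Exons of Rarb share 1793 bases with Top2b on the opposite strand. Top2b measured 52.7 ± 6.93 and 41.9 ± 5.90 CPM (SD, n = 3), far above Rarb, and its log2 fold change was -0.33 ± 0.16 (adjusted p = 0.13).

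Retinoic acid targets other than Rarb were higher in Hdac1/2-deleted mice where they changed. Of 9 listed genes, 8 were in the table, 7 were tested, 4 increased and none decreased, and the median log2 fold change was 3.68. Of those that increased, Cyp26b1 and Crabp2 were too low for the naming rule and were named after their values were seen. Cyp26b1, which degrades retinoic acid, measured 0.0755 to 0.302 CPM against 2.24 to 2.58 CPM. Crabp2, which carries retinoic acid to the nucleus, measured 0 to 0.072 CPM against 0.486 to 1.95 CPM. The tested targets Dhrs3, Isx and Tgm2 had log2 fold changes of -0.37 to -0.32, none past the test, and Cyp26a1 was too low to be tested. Aldh1a1, the main enzyme listed that makes retinoic acid, measured 754, 1053 and 815 CPM in control mice and 337, 482 and 547 CPM in Hdac1/2-deleted mice. Its log2 fold change of -0.94 ± 0.22 passed the adjusted p limit (adjusted p = 0.0081) but was under 2-fold.

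Of the retinoid X receptors, the shared partners of many other receptors, Rxra was the most abundant. It measured 252, 278 and 298 CPM in control mice and 205, 265 and 273 CPM in Hdac1/2-deleted mice, so that the groups overlapped. The log2 fold change was -0.16 ± 0.16 (adjusted p = 0.46). Rxrb measured 46.0, 49.1 and 37.5 CPM against 26.7, 34.0 and 23.4 CPM, and all control mice were above all Hdac1/2-deleted mice. Its log2 fold change of -0.66 ± 0.18 passed the adjusted p limit (adjusted p = 0.017) but not 2-fold.

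The fatty acid sensors did not pass the test. Ppard, the peroxisome proliferator-activated receptor linked to fatty acid oxidation and intestinal stem cells, measured 159, 214 and 169 CPM in control mice and 200.4, 326 and 252 CPM in Hdac1/2-deleted mice. C3 lay above H1, and the log2 fold change of 0.52 ± 0.20 had an adjusted p of 0.070. Pparg, known for fat cell differentiation and present in the gut, ranged from 6.38 to 19.2 CPM in control mice and from 8.08 to 13.5 CPM in Hdac1/2-deleted mice, and the log2 fold change was -0.29 ± 0.38. Ppara, of the same family but outside the receptors listed, measured 38.3 ± 15.1 CPM in control mice and 29.3 ± 5.50 CPM in Hdac1/2-deleted mice (SD, n = 3). Its log2 fold change of -0.38 ± 0.30 (SE) did not pass either (adjusted p = 0.33). Of 9 tested genes known to respond to this receptor family, 4 decreased and none increased, while Cpt1a passed the adjusted p limit under 2-fold, at 0.71. Pdk4, an inhibitor of pyruvate oxidation, measured 367, 163 and 129 CPM in C1, C3 and C3-3 and 4.68, 3.40 and 3.04 CPM in H1, H5 and H9, a log2 fold change of -5.89. Cd36, a fatty acid transporter, went from 189.9 to 281 CPM in control mice to 6.66 to 10.6 CPM in Hdac1/2-deleted mice, a log2 fold change of -4.88. Cyp4a10, a fatty acid hydroxylase, and Plin2, a lipid droplet protein, had log2 fold changes of -5.13 and -1.13.

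The liver X receptors sense oxysterols and govern cholesterol efflux, and both were modestly lower in Hdac1/2-deleted mice. Nr1h2 (LXR beta) measured 119.9, 171 and 142 CPM in C1, C3 and C3-3 and 100.2, 107 and 109 CPM in H1, H5 and H9. Nr1h3 (LXR alpha) measured 80.9, 87.3 and 88.3 CPM against 56.5, 70.6 and 68.6 CPM. Neither gene overlapped between groups, and the log2 fold changes were -0.45 ± 0.16 and -0.39 ± 0.14 (adjusted p = 0.044 and 0.045). Both passed the adjusted p limit under 2-fold. Both missed it with RLE factors (adjusted p = 0.056 and 0.061), with library totals only (0.16 and 0.23) and with no filter on low counts (0.053 and 0.055). With the DESeq2 Wald test they also missed it (adjusted p = 0.064 and 0.083). Of 10 liver X receptor targets, all tested, 4 decreased and none increased. Srebf1, which drives fatty acid synthesis, measured 463, 287 and 536 CPM in C1, C3 and C3-3 and 128, 86.8 and 120.2 CPM in H1, H5 and H9, a log2 fold change of -1.94. Abcg8, a sterol exporter subunit, had a log2 fold change of -1.47, and its partner Abcg5 one of -0.50 that passed the adjusted p limit under 2-fold. Mylip, which degrades the LDL receptor, and Smpdl3a, a phosphodiesterase, had log2 fold changes of -2.69 and -1.74. Abca1 and Abcg1, the cholesterol efflux pumps, had 0.26 and -0.30 and did not pass.

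The thyroid hormone receptors did not pass the test either. Thra, the main thyroid hormone receptor of the gut, measured 115, 151 and 142 CPM in control mice and 122, 144 and 171 CPM in Hdac1/2-deleted mice, with overlapping groups and a log2 fold change of 0.09 ± 0.17. Exons of Thra share 263 bases with Nr1d1 on the opposite strand, and Nr1d1 measured 91.4 to 308 CPM in control mice and 40.5 to 84.4 CPM in Hdac1/2-deleted mice, a log2 fold change of -1.60 that became -0.98 without C3-3. Thrb measured 35.1, 25.1 and 26.8 CPM against 21.9, 17.4 and 23.5 CPM. All control mice of Thrb were above all Hdac1/2-deleted mice, with a log2 fold change of -0.47 ± 0.18 and an adjusted p of 0.072. Of 4 tested thyroid hormone targets 1 decreased, Dio1, the deiodinase that activates the hormone, which measured 101 to 125 CPM in control mice and 26.2 to 31.1 CPM in Hdac1/2-deleted mice.

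Among the steroid receptors, the glucocorticoid receptor Nr3c1 decreased and the mineralocorticoid receptor Nr3c2 did not pass the test. Nr3c1 measured 118, 112 and 109.9 CPM in C1, C3 and C3-3 and 55.5, 41.5 and 54.4 CPM in H1, H5 and H9. The lowest control mouse was well above the highest Hdac1/2-deleted mouse, and the log2 fold change was -1.17 ± 0.15 (SE, adjusted p = 0.00039). Nr3c2, which mediates sodium retention, measured 42.2, 35.1 and 55.3 CPM against 48.0, 31.6 and 47.8 CPM, with a log2 fold change of -0.06 ± 0.22 (adjusted p = 0.85). Esr1, the estrogen receptor alpha, was counted at 1, 8 and 10 reads in control mice and 16, 10 and 12 reads in Hdac1/2-deleted mice, a ratio of Hdac1/2-deleted to control of 2.02 with an exact interval of 1.13 to 3.70 for counting error. In the fit across mice its log2 fold change of 0.97 ± 0.70 did not pass (adjusted p = 0.30). Of 9 tested glucocorticoid targets, 3 decreased and none increased, and Klf9 was higher at 0.96, under 2-fold. Sgk1, a kinase that activates sodium transport, measured 980.2, 317 and 237 CPM in C1, C3 and C3-3 and 35.2, 26.8 and 30.7 CPM in H1, H5 and H9, a log2 fold change of -4.05. Tsc22d3 (GILZ), an anti-inflammatory mediator, measured 281, 122 and 66.2 CPM against 16.0, 14.2 and 10.2 CPM, a log2 fold change of -3.54. Zbtb16 varied from 0.324 to 11.4 CPM among control mice and reached at most 0.276 CPM in Hdac1/2-deleted mice, with a log2 fold change of -4.70 ± 1.25 that missed the adjusted p limit without H1, H5 or H9 (adjusted p of up to 0.094). In all 3 genes C1 was the highest control mouse. Fkbp5, another glucocorticoid target, spread from 9.16 to 198 CPM among control mice alone and had a log2 fold change of 0.03. Hsd11b2, which inactivates glucocorticoids and so protects the mineralocorticoid receptor, measured 9.46, 4.88 and 5.55 CPM against 3.31, 3.87 and 2.68 CPM, a log2 fold change of -1.02 that became -0.66 without C1 and missed the adjusted p limit without C1, H1 or H9. Hsd11b2 and Sgk1 were the 2 of 3 tested genes listed as mineralocorticoid targets that decreased. Sgk1 is also counted among the glucocorticoid targets and Hsd11b2 among the ligand enzymes, so these counts are not separate. Across the 5 tested enzymes that make or remove receptor ligands, 2 decreased, Dio1 and Hsd11b2, and none increased.

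The testicular orphan receptors, which bind repeats of the same half-site as many other members and often act as repressors, were both lower. Nr2c1 (TR2), on chromosome 10 from 94148023 to 94197211, measured 18.7, 12.8 and 15.9 CPM in C1, C3 and C3-3 and 3.62, 3.18 and 3.41 CPM in H1, H5 and H9. The Hdac1/2-deleted mice lay close together and far below every control mouse. The log2 fold change was -2.21 ± 0.21 (SE, adjusted p = 8.8e-05), which was the largest decrease among receptors above 1 CPM in both groups. Nr2c2 (TR4) measured 50.2, 39.4 and 43.6 CPM against 31.1, 25.3 and 27.2 CPM, again with no overlap, and its log2 fold change was -0.67 ± 0.15 (adjusted p = 0.0068), under 2-fold. Nr2c2 shares 4590 exon bases with Mrps25 on the opposite strand, and Mrps25 was higher in Hdac1/2-deleted mice, at 35.8 ± 3.04 CPM against 23.3 ± 3.26 CPM.

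The COUP transcription factors differed from each other. Nr2f2 (COUP-TFII), known from mesenchyme, veins and lymphatic vessels, measured 2.75, 4.41 and 2.01 CPM in C1, C3 and C3-3 and 0.918, 1.13 and 0.894 CPM in H1, H5 and H9. Its groups did not overlap, and the log2 fold change was -1.64 ± 0.36 (SE, adjusted p = 0.0061). Nr2f6, the most abundant of the 3, measured 95.4, 125 and 93.2 CPM against 112, 149 and 142 CPM, and its log2 fold change of 0.36 ± 0.17 did not pass (adjusted p = 0.12). Nr2f6 shares 1622 exon bases with Ocel1 on the opposite strand, which decreased with a log2 fold change of -1.37. Nr2f1 (COUP-TFI) was too low for the filter, with 0, 2 and 0 reads in control mice and 2, 8 and 11 reads in Hdac1/2-deleted mice. Its ratio of Hdac1/2-deleted to control was 10.6, with an exact interval of 2.59 to 93.1 for counting error. Nr2f1 was called increased in the fits without C3 or without H1. It was not called with DESeq2 or with no filter on low counts, in which all 29 receptors had an adjusted p.

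Smooth muscle markers moved with Rarb, Rarg and Nr2f2. All 5 of these markers decreased, Myh11 and Actg2 were at 0 counts in at least 1 Hdac1/2-deleted mouse, and no marker was at 0 in a control mouse. In C3-3, whose markers summed to 2.77 CPM, below the 66.5 and 52.4 CPM of the other control mice and above the 0.358 to 0.395 CPM of the Hdac1/2-deleted mice, Rarb was at 0.320 CPM, Nr2f2 at 2.01 CPM and Rarg at 1.67 CPM. These 3 values likewise lay below those of C1 and C3 and above those of all Hdac1/2-deleted mice. The order was not particular to these receptors. Rxrb, Nr3c1 and Esrra showed it too, with C3-3 at 37.5, 109.9 and 272 CPM. Rarg and Nr2f2 were higher in C3 than in C1, the reverse of the summed markers. The part of smooth muscle in the levels of Rarb, Rarg and Nr2f2 was not tested. Without C1 and C3, a choice made after seeing the data, Rarb had a log2 fold change of -4.57 (adjusted p = 0.016) and stayed called. Nr2f2 then had -1.03 (adjusted p = 0.15) and Rarg -0.70 (adjusted p = 0.41), with C3-3 as the lone control mouse, assumed to vary like the others. Fibroblast markers summed to 13.1 to 19.0 CPM in control mice and 9.43 to 12.9 CPM in Hdac1/2-deleted mice, with 1 of 5 tested markers decreased. Endothelial markers went the other way in sum, at 5.96 to 8.29 CPM in control mice and 9.999 to 11.44 CPM in Hdac1/2-deleted mice. None of the 4 tested was called. Lyve1 passed the adjusted p limit under 2-fold, at 0.70 (adjusted p = 0.026), while Cdh5 was at -0.30 and did not pass. The part of fibroblasts and endothelial cells in the level of Nr2f2 was not tested.

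**Figure D3:**
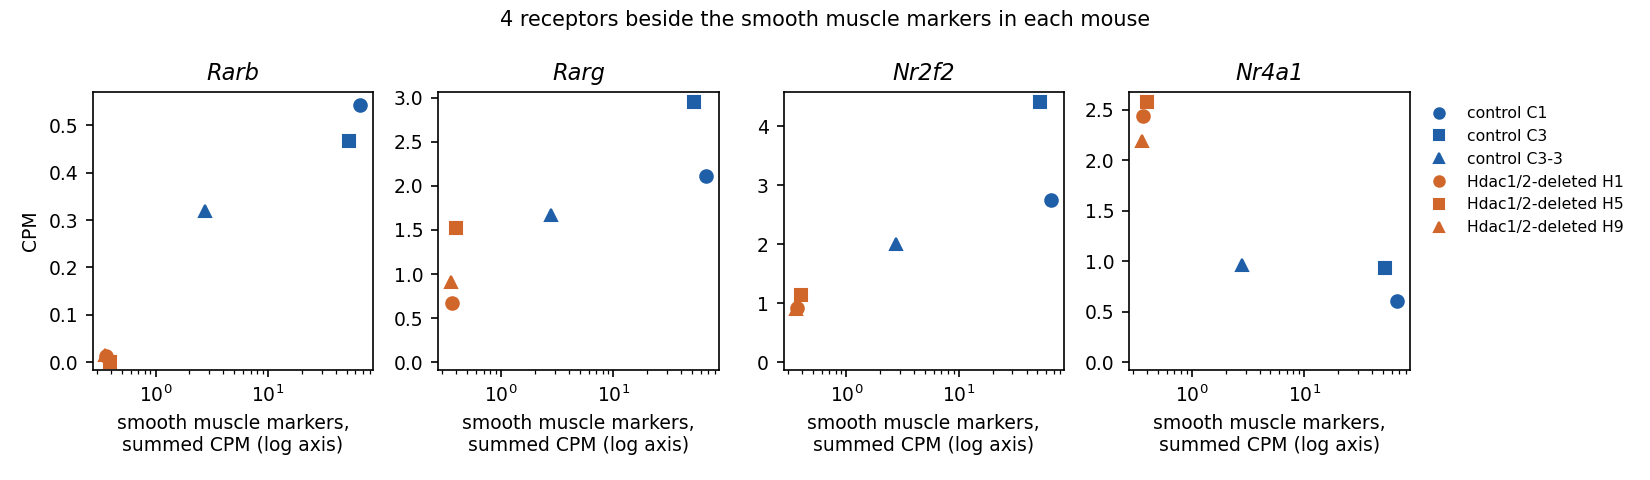
CPM of Rarb, Rarg, Nr2f2 and Nr4a1 (vertical, linear from 0) against the summed CPM of 5 smooth muscle markers (horizontal, log axis) in each mouse. C3-3, the blue triangle, lies between the other control mice and the orange points both in smooth muscle markers (2.77 CPM) and in Rarb, Rarg and Nr2f2.

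The NR4A receptors are orphan receptors made quickly after a stimulus, and 2 of the 3 were higher in Hdac1/2-deleted mice. Nr4a1 (Nur77), on chromosome 15 from 101254269 to 101274795, measured 0.604, 0.936 and 0.959 CPM in C1, C3 and C3-3 and 2.44, 2.58 and 2.19 CPM in H1, H5 and H9. All Hdac1/2-deleted mice were above all control mice, and the log2 fold change was 1.53 ± 0.32 (SE, adjusted p = 0.0046). Nr4a2 (Nurr1) measured 1.75, 2.45 and 1.64 CPM against 3.75, 4.68 and 3.04 CPM, also without overlap. Its log2 fold change of 0.97 ± 0.30 passed the adjusted p limit (adjusted p = 0.027) but fell short of 2-fold. Nr4a3 (Nor1) ranged from 0.226 to 0.792 CPM in control mice and from 0.391 to 0.715 CPM in Hdac1/2-deleted mice, with a log2 fold change of 0.02 ± 0.51. Myeloid markers moved in the same direction as Nr4a1, with sums of 14.6 to 22.6 CPM in control mice and 24.3 to 49.5 CPM in Hdac1/2-deleted mice. Of these 7 markers 3 increased and none was at 0 in any mouse. Of those that increased, C1qa and C1qb missed the adjusted p limit with a mouse left out (up to 0.11 and 0.18). Endothelial marker sums were also higher in Hdac1/2-deleted mice. T cell markers went the other way with overlap, at 40.4 to 126.5 CPM against 26.4 to 50.1 CPM, with 2 of 7 decreased and 1 increased. The part of these cells in the level of Nr4a1 was not tested. Of 13 other immediate early genes, 1 increased and 2 decreased. Egr1 had a log2 fold change of 1.58, Jun one of -1.55 and Btg2 one of -2.67, while Fos measured 90.0 to 150.3 CPM in control mice and 92.3 to 98.5 CPM in Hdac1/2-deleted mice.

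The start region of Nr4a1 is printed because it belongs to the only receptor that increased. The RefSeq window of GRCm38.p6, chr15:101266596-101266895 on the plus strand, is given 5′ to 3′ with the 4 copies of TGCGTCA in capitals, a motif close to the cyclic AMP response element, which begin 235 to 42 bases before the start.
Nr4a1: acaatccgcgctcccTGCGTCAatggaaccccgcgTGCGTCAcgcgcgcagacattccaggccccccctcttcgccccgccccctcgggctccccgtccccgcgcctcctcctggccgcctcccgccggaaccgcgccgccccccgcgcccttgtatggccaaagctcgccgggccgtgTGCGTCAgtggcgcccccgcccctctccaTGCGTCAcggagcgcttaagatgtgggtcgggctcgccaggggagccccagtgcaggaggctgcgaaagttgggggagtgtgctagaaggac
The motif, searched on both strands, stood in 2.12% of 32851 promoter windows, and Nr4a1 was the only receptor of the list that held it. For comparison AGGTCA, the half-site that many nuclear receptors bind, stood in 16.3% of the windows and in those of 8 receptors, none of which was called except Rarg.

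No other orphan receptor was called. Esrra, which controls mitochondrial genes, measured 279.8, 275 and 272 CPM in control mice and 216, 203 and 213 CPM in Hdac1/2-deleted mice. Both groups were tight and did not overlap, and the log2 fold change of -0.39 ± 0.13 passed the adjusted p limit (adjusted p = 0.035) well under 2-fold. Esrrg measured 3.31, 2.93 and 2.97 CPM against 1.70, 2.76 and 1.10 CPM, without overlap, and its log2 fold change of -0.74 ± 0.36 did not pass (adjusted p = 0.13). Esrrb was too low for the filter, with 19 reads in C1, none in C3 or C3-3 and 1 to 3 in each Hdac1/2-deleted mouse. Of 8 tested targets of this family only Pdk4 changed by 2-fold, and Atp5b, Cs, Cycs, Idh3a, Acadm and Sdhb ranged from -0.39 to 0.41 on the log2 scale with none past the test. Nr5a2 (LRH-1), needed for crypt renewal and local glucocorticoid synthesis, measured 28.2, 19.5 and 19.1 CPM against 32.5, 32.5 and 21.4 CPM, with a log2 fold change of 0.37 ± 0.22 (adjusted p = 0.21). None of its 3 tested targets was called. Nr6a1 (GCNF), a repressor known from germ cells, measured 15.03, 15.6 and 15.6 CPM against 12.5, 13.7 and 17.0 CPM, with a log2 fold change of -0.10 ± 0.17. Rora was low, at 0.272 to 0.360 CPM in control mice and 0.263 to 0.569 CPM in Hdac1/2-deleted mice, with a log2 fold change of 0.17 ± 0.46.

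Of the 6 receptors past the adjusted p limit under 2-fold, Nr2c2 passed it with each mouse left out in turn, at -0.76 to -0.57. The other 5 kept their direction with each mouse left out and missed the limit in at least 3 of the 6 cases. Esrra and Nr1h3 missed it in all 6, at -0.40 to -0.35 and -0.45 to -0.29 (adjusted p of up to 0.10 and 0.14). Nr1h2 passed it only without C1, and ranged from -0.56 to -0.31 (up to 0.15). Rxrb missed it without C3, H1 or H9 and ranged from -0.82 to -0.54 (up to 0.066), and Nr4a2 missed it without C1, C3-3, H1 or H5 and ranged from 0.81 to 1.18 (up to 0.093).

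Ratios of related receptors within each mouse do not depend on how libraries are scaled. Of 10 pairs, 4 did not overlap between groups. The log2 ratio of Nr2c1 to Nr2c2 was -1.50 ± 0.11 in control mice and stood at -3.03 ± 0.06 in Hdac1/2-deleted mice (SD, n = 3, exact two-sided permutation p = 0.10). That of Nr3c1 to Nr3c2 was 1.38 ± 0.35 and 0.26 ± 0.11, and that of Nr2f2 to Nr2f6 was -5.15 ± 0.35 and -7.08 ± 0.20. That of Rara to Rarg, in which the decreased receptor Rarg is the denominator, rose from 4.58 ± 0.31 to 5.51 ± 0.37. With 3 mice against 3 the exact permutation test cannot give a p below 0.10, which all 4 pairs reached, and adjusted over the 10 pairs each became 0.25. The ratios of Rxra to Rxrb, Ppard to Pparg, Nr1h2 to Nr1h3, Thra to Thrb, Nr4a1 to Nr4a2 and Esrra to Esrrg overlapped between groups.

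**Figure D4:**
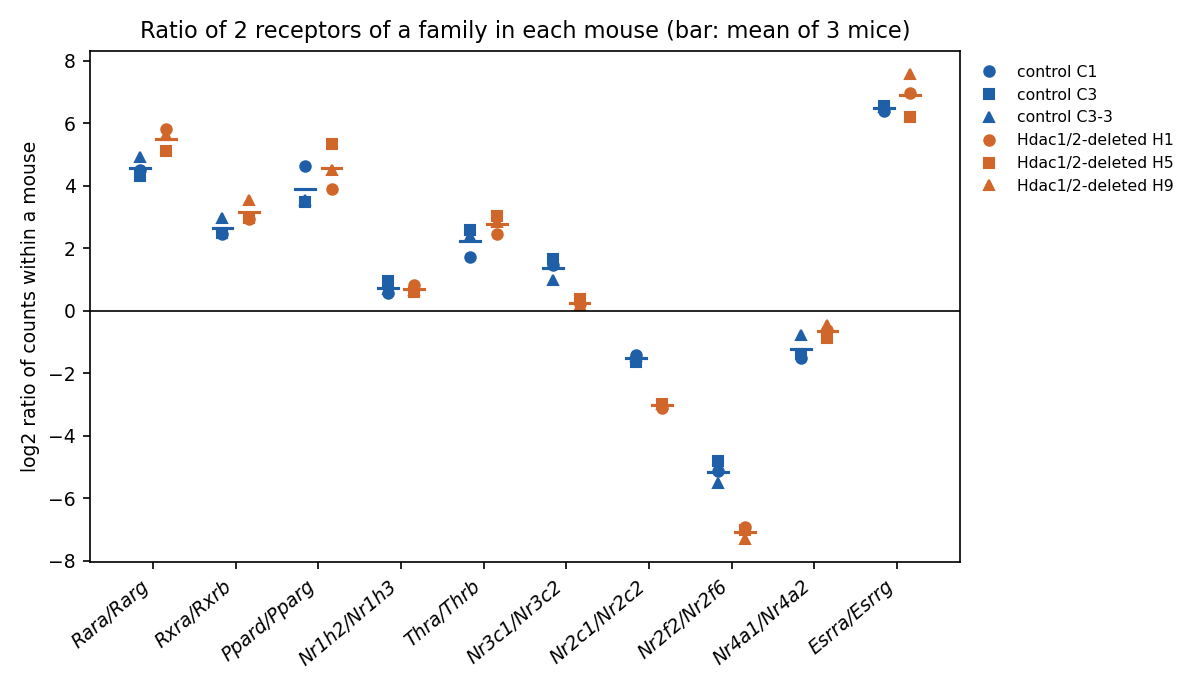
Log2 ratio of the counts of 2 receptors of a family within each mouse, for 10 pairs; points are mice, bars are means of 3. The groups separate in Rara/Rarg, Nr3c1/Nr3c2, Nr2c1/Nr2c2 and Nr2f2/Nr2f6, and the Nr2c1/Nr2c2 mean moves from -1.50 to -3.03.

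Nuclear receptors act through coregulators, and these moved in both directions. Of 22 coregulators tested, 2 increased and 2 decreased, where 12.4% of all genes tested increased and 12.7% decreased. The decreased count was 1 with RLE factors, library totals only, DESeq2, the 10-count filter, without C1, C3 or H1, and without both C1 and C3, and 3 without C3-3. The increased count was 4 with library totals only, 3 without H9, and 1 with a prior count of 2 and without C3-3 or H5. The median log2 fold change of the coregulators was -0.05, close to the -0.0081 of all genes tested. Ncor1, the corepressor that holds HDAC3 at unliganded receptors, measured 350, 378 and 288 CPM in C1, C3 and C3-3 and 156, 179 and 168 CPM in H1, H5 and H9, a log2 fold change of -1.01 ± 0.15 that was as small as -0.92, under 2-fold, without C3. All control mice were above all Hdac1/2-deleted mice. Ncoa7, an estrogen receptor coactivator with a role in oxidative stress, had a log2 fold change of -2.91. Ppargc1b and Pprc1, coactivators of mitochondrial biogenesis, had 1.52 and 1.001, the second at 0.82 without C3, while their relative Ppargc1a had -0.59, past the adjusted p limit under 2-fold.

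**Figure D5:**
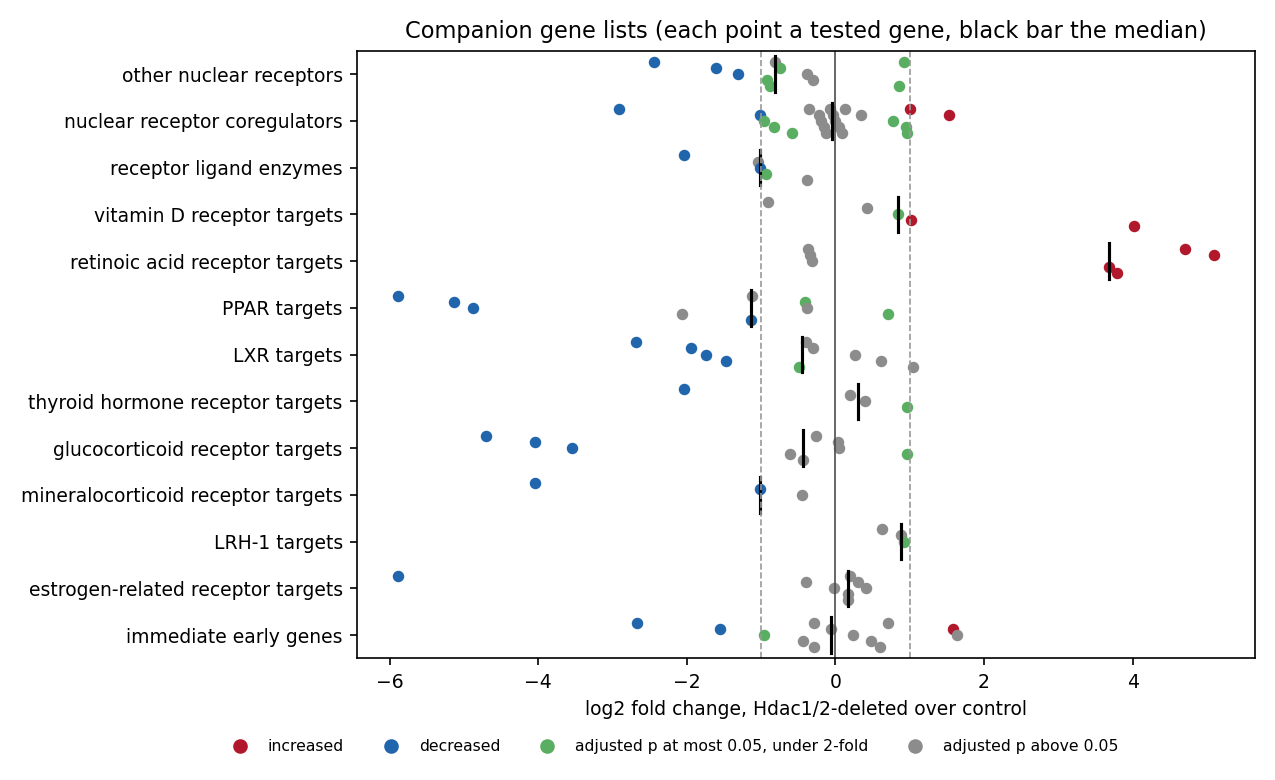
Log2 fold change, Hdac1/2-deleted over control, of every tested gene of 13 companion lists; colour gives the call, black bars the medians, and dashed lines 2-fold. Called targets of the vitamin D and retinoic acid receptors lie to the right, and called targets of PPAR, LXR and the glucocorticoid receptor lie to the left.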

How the data were processed

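Polyadenylated RNA of jejunal IEC from 3 control and 3 Hdac1/2-deleted mice was sequenced with a strand-marking kit. Per the submitters' processing notes the tools were bcl2fastq 1.8.4 and STAR 2.4.0f1. The notes name mm9 and the study's methods GRCm38, and the table has no coordinates. The counting program and its use of strand are not given in the sources used here. The authors deposited raw counts of reads per gene for 19616 genes, none with fewer than 10 counts over the 6 libraries. The table's log2 fold changes, mean log2 CPM, DESeq and edgeR p-values and adjusted p-values, and 6 columns of scaled values were not used.

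Counts were normalized by TMM and fitted with edgeR 4.0.16 (limma 3.58.1, R 4.3.3), using filterByExpr, the robust quasi-likelihood test, a prior count of 0.125 and Benjamini-Hochberg adjustment over 15618 genes. CPM used TMM library sizes. The SE is the log2 fold change divided by the square root of F. DESeq2 1.42.0, other scalings, filters, prior counts and fold limits, and leaving out each mouse were alternatives. Whether the mice were littermates is not given, and p-values measure the spread between these mice. The steps were tested on simulated data. Exact tests used scipy 1.17.1, and plots matplotlib 3.10.9. Positions and exon lengths came from GENCODE M21 by gene identifier. Promoter windows, 250 bases before to 50 after a start, came from RefSeq (GRCm38.p6) and matched 29 of the 31 genes by symbol. Nr3c1 and Thra had no entry. Printed windows and motifs were chosen after seeing the values and these sequences.

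The receptors and lists were chosen with earlier results of these data known. By the naming rule, receptors called, past the adjusted p limit or highest in their family were given in full, and of each list at most 4 called genes with the largest change and a mean log2 CPM of at least 1. Genes outside the rule were chosen after their values were seen. Some genes of the lists are counted but not reported by name here. The counts of called genes in each list stand beside 12.4% of all genes tested increased and 12.7% decreased.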

Additional observations from a re-analysis of the deposited data

How the results depend on the processing

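The 6 decreased receptors became 4 to 8 under the alternatives. Vdr, Nr2c1 and Rarb were called wherever they entered the test. Rarb was not tested when 10 counts were required in every library. Rarg was lost with RLE factors (adjusted p = 0.051) and with library totals only (0.080). Library totals alone also put Nr3c1 at -0.98, under 2-fold, and moved the median of all genes to 0.18 and the share of calls that were increases from 49.4% to 61.6%. The number of increased receptors was 1, but 2 with library totals only, 2 at 1.5-fold, 0 without C1 and C3, and 1 to 3 when each mouse was left out (3 without C3, with Nr2f1 and Nr4a2). Nr4a1 without C1 and C3 had 1.33 (adjusted p = 0.080). The 13 receptors past the adjusted p limit became 8 to 11 when each mouse was left out. They became 10 with RLE factors, 9 with library totals only, and 11 with DESeq2, with no filter or with the 10-count filter. Esrrg was called without H5, at -1.12.

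Some of the receptors that were never called changed sign. With library totals only, Rxra was at 0.029, Nr3c2 at 0.13 and Nr6a1 at 0.087. When each mouse was left out, Pparg ranged from -0.62 to 0.072 (without C3), Thra from -0.035 (without H9) to 0.21, Nr3c2 from -0.19 to 0.14 (without C3-3), Rora from -0.29 (without H9) to 0.36 and Nr4a3 from -0.35 (without C1) to 0.41. Nr4a3 was at -0.14 without C1 and C3. The log2 ratio of Nr1h2 to Nr1h3 differed between groups by -0.041, and by -0.13 to 0.072 (without C3) when each mouse was left out. The cause was not tested. Leaving out C1 and C3 was chosen after seeing the data. No paired analysis was possible because the mouse names share only 1 number across groups, that of C1 and H1. Depth limits Rarb, Esr1, Nr2f1, Esrrb and Rora, each counted under 40 times in every mouse. Among the target and enzyme lists, the decreased count of ligand enzymes and of mineralocorticoid targets was 1 in place of 2 with RLE factors, library totals only, DESeq2, without H1 and without C1 and C3, and that of mineralocorticoid targets also without C1 or H9. The increased count of vitamin D targets was 1 in place of 2 without H1 and without C1 and C3, and that of retinoic acid targets 1 in place of 4 when 10 counts were required in every library. Immediate early genes had 2 increases with library totals only, DESeq2, without C3 or without H5, and 1 decrease in place of 2 without C1 and C3. The other nuclear receptors had 1 to 2 increases in place of none in 5 settings, the LRH-1 targets 1 in 5 settings, and the LXR, thyroid hormone and glucocorticoid targets 1 in place of none in 3 settings each.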

Other observations

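Of 18 other nuclear receptors, mostly those of bile acid, xenobiotic, clock and liver-type control, 13 were in the table and 11 were tested. None increased and 3 decreased, and their median log2 fold change was -0.81. Nr1i3 (CAR), a xenobiotic sensor, measured 57.2, 71.8 and 67.3 CPM in C1, C3 and C3-3 and 31.9, 22.5 and 24.3 CPM in H1, H5 and H9, a log2 fold change of -1.32. Nr1d1 (Rev-erb alpha), a clock repressor, had -1.60, and Nr2e3, named after its values were seen, had -2.45 at 2.58 CPM or less. Nr1h4 (FXR), the bile acid receptor, and its target Nr0b2 (SHP) were higher under 2-fold, at 0.86 and 0.92, each without overlap between groups. Nr1i2 and Hnf4g were lower under 2-fold, at -0.75 and -0.88.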
